A study of Mus musculus with 6 samples.

Results

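GABA receptor subunit genes of the mouse retina were followed here: Gabra2, Gabra3, Gabrb1, Gabrb2, Gabrd, Gabrr1 and Gabrr2. They were chosen by gene symbol, and all 7 had a row among the 15465 genes of the tables. Retinas of wild-type C57BL6/J mice were profiled by RNA sequencing, and no other genotype, treatment or age is reported for the samples used here. Per the sample titles there were 3 biological replicates with 2 technical replicates each. Every library was made from RNA of 5 pooled mice, and each biological replicate has 1 column of values, so n was 3. The source labels number the samples in a way that conflicts with the titles, and the SDs below rest on the titles.

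GABA is the main inhibitory transmitter of the retina, released by horizontal and amacrine cells. Its ionotropic receptors are chloride channels of several subunits. GABA-A receptors are built mostly from alpha and beta subunits together with a gamma or a delta subunit. The rho subunits instead assemble with each other and form the slow receptors once called GABA-C, which are best known from the axon terminals of bipolar cells. To place the members, 5 other subunit genes are given beside them (Gabra4, Gabra5, Gabrg1, Gabrg3 and Gabrr3), 12 subunit genes in all. The rho class is complete among them. The alpha, beta and gamma classes have further genes that are not reported here, so that a share given for alpha or beta is a share among the genes named and not of the class.

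The rho pair was the most closely related in sequence among the 11 pairs of these genes within a class. The coding sequences of Gabrr1 and Gabrr2 had 77.5% identical bases where they aligned, and held an exact run of 81 bases in common. The longest run shared by any other pair within a class was 24 bases, between Gabra3 and Gabra5. The stretch below is shown because reads within the common run carry no base that assigns them to Gabrr1 or to Gabrr2. It is the GENCODE M21 coding sequence in the region of the third membrane-spanning segment, with 18 bases on either side of the run. In build GRCm38 it lies on the plus strand in exon 9 of Gabrr1 (chr4:33161692-33161808), exon 8 of Gabrr2 (chr4:33085608-33085724) and exon 8 of Gabrr3 (chr16:59447986-59448102). These coordinates are of another build than mm9, which the submitters name. Capitals mark the bases that differ from Gabrr1, 6 in Gabrr2 and 29 in Gabrr3 of 117.
Gabrr1: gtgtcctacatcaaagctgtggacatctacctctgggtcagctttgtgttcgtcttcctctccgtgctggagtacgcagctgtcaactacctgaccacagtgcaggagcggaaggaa
Gabrr2: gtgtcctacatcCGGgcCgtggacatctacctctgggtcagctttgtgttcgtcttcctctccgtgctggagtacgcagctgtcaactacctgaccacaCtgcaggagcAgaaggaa
Gabrr3: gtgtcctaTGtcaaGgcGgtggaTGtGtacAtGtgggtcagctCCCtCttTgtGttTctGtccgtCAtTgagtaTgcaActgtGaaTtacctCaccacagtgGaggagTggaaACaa

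The common part was small beside the whole transcripts. Of all 50-base windows of the Gabrr1 transcript, 57 of 2237 (2.55%) also occurred in Gabrr2, and of those of Gabrr2, 57 of 1771 (3.22%) occurred in Gabrr1. With 75-base windows the shares were 0.316% and 0.401%. Neither Gabra2 and Gabra3 nor Gabrb1 and Gabrb2 had a 36-base window in common. The read length and the handling of reads with several matches are not stated in the labels.

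The deposited values were taken as RPKM, read counts divided by transcript length and library size, which sets levels of different genes on a per-length scale. The unit is inferred from the values. The tables summed to between 249532 and 302634 RPKM, and the read depth is unknown, so that no counting interval could be given. Markers of the labelled tissue were present: all 14 bipolar, 8 amacrine, 8 ganglion cell, 6 rod and 4 Muller glia markers with a row had 1 RPKM or more in every replicate, as did the 4 horizontal cell markers with a row. Markers of adjoining tissue were unequal between pools. In replicates 1, 2 and 3 the 7 lens markers had a sum of 515, 248 and 1326 RPKM, and the 6 pigment epithelium markers one of 471, 450 and 259 RPKM. In whole retina, the number of cells that express a subunit and the amount of its RNA per cell cannot be told apart.

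Gabrr2 and Gabrr1 stood above the other 10 subunit genes reported here. Gabrr2, the rho2 subunit, had 43.0, 46.2 and 40.0 RPKM in replicates 1, 2 and 3, a mean of 43.0 ± 3.09 (SD, n = 3). Gabrr1, the rho1 subunit, had 38.3, 43.4 and 36.2 RPKM, a mean of 39.3 ± 3.75. Each was highest in replicate 2 and lowest in replicate 3, and the ranges of the pair overlapped. The summed RPKM of the 14 bipolar markers had the same order of replicates (429, 451 and 412), as did the sum over all genes. The amacrine and ganglion cell sums had it too, and the rod, Muller glia and horizontal cell sums did not. The part of these cells and of the sum over all genes in the differences was not tested. After the scaling used below for the spread, Gabrr2 was instead highest in replicate 1 and lowest in replicate 2. The means of Gabrr2 and Gabrr1 were above those of 92.6% and 91.4% of all genes.

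Within each pool Gabrr2 stood slightly above Gabrr1, 1.10 ± 0.0314-fold (SD, n = 3), and the order was the same in 3 of 3 replicates. This ratio was 0.13 ± 0.04 on the scale of log2(RPKM + 0.1). It rests on the length by which the authors divided. After multiplication by the transcript length of the annotation used here (2286 bases for Gabrr1, 1820 for Gabrr2), Gabrr1 was the higher one and the log2 ratio was -0.20. Such a value is proportional to reads only where the authors divided by the same length, and their lengths are not stated. The terms read-proportional and shares of reads are used below under that condition. The third rho gene, Gabrr3, had 5.37, 5.02 and 5.81 RPKM, and Gabrr1 exceeded it 7.33 ± 1.23-fold.

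Shares of the rho class were therefore 49.1% ± 0.488 for Gabrr2, 44.7% ± 1.02 for Gabrr1 and 6.20% ± 0.892 for Gabrr3 (SD, n = 3). As shares of reads, after multiplication by transcript length, the order of the leading pair turned: Gabrr1 held 46.9% ± 1.40, Gabrr2 41.0% ± 0.556 and Gabrr3 12.1% ± 1.65.

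**Figure D1:**
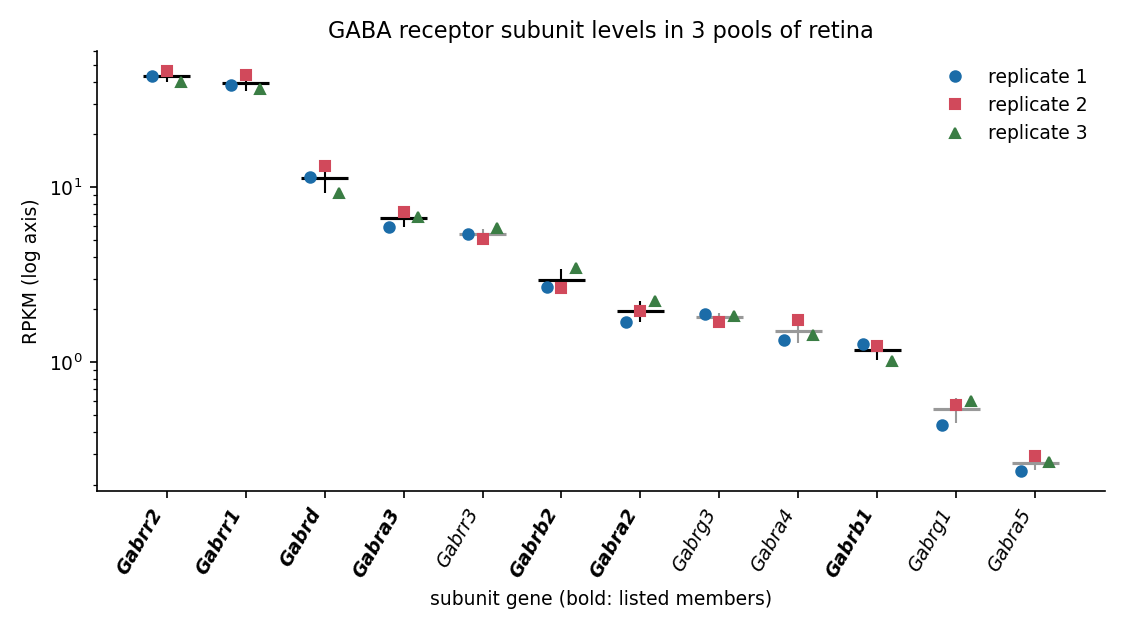
RPKM of the 12 subunit genes reported (log axis) in order of mean level. Points are the 3 replicates, horizontal bars the means, vertical lines 1 SD, and bold names the 7 members. Gabrr2 and Gabrr1 lie near 43.0 and 39.3 RPKM, apart from Gabrd and the lower genes.

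Gabrd encodes the delta subunit, which takes the place of gamma in receptors that lie outside synapses and carry tonic inhibition. It had 11.5, 13.2 and 9.20 RPKM in replicates 1, 2 and 3, a mean of 11.3 ± 2.01 (SD, n = 3), and was the third of the members by level. Its range did not overlap those of its neighbours in the order: Gabrr1 exceeded it 3.52 ± 0.359-fold and it exceeded Gabra3 1.71 ± 0.314-fold. In read-proportional values (RPKM times kb) the order of the latter pair turned, with 22.1, 25.4 and 17.7 for Gabrd and 21.5, 26.5 and 24.8 for Gabra3 in replicates 1, 2 and 3, and the ranges overlapped. As RPKM, Gabrd was lowest in replicate 3, the pool in which the summed pigment epithelium markers were lowest and the summed lens markers highest. Of the single markers, only Rpe65 (6.25, 20.1 and 6.74 RPKM in replicates 1, 2 and 3) and Mip (41.4, 35.0 and 40.8) departed from this. The summed RPKM of the 8 amacrine markers ran in the order of Gabrd, with 478, 508 and 386 in replicates 1, 2 and 3. The same order held for the sums of the bipolar (429, 451 and 412) and ganglion cell markers (379, 430 and 371) and over all genes. It did not hold for the sums of the rod (8016, 9217 and 8157), Muller glia (663, 563 and 569) and horizontal cell markers (37.22, 38.96 and 37.85). Not every bipolar and ganglion cell marker had this order singly. Singly, the amacrine markers Gad1, Calb2, Th and Pax6 had this order, and Gad2, Slc32a1, Slc6a9 and Chat did not. The part of these cells and tissues in the difference was not tested. In RefSeq annotation of GRCm38.p6 the gene span overlaps that of Cfap74 by 6000 bases. Cfap74, under its older symbol 2010015L04Rik, had 1.82, 2.03 and 1.98 RPKM.

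Gamma subunits complete the common synaptic receptor and, with alpha, form the benzodiazepine site. None of the members is a gamma gene, and no shares of that class are given. In replicates 1, 2 and 3, Gabrg3 had 1.88, 1.69 and 1.84 RPKM and Gabrg1 had 0.44, 0.57 and 0.60 RPKM. Gabrd lay above both in each replicate as RPKM. In read-proportional values it stayed above Gabrg1, but Gabrg3 had a mean of 17.6 ± 0.978 RPKM times kb against 21.7 ± 3.86 for Gabrd, and was above Gabrd in replicate 3.

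Alpha subunits set much of the GABA sensitivity and pharmacology of the receptor. Gabra3 had 5.88, 7.23 and 6.78 RPKM in replicates 1, 2 and 3, a mean of 6.63 ± 0.687 (SD, n = 3), close to the middle of all genes (51.5% were lower). Gabra2 had 1.69, 1.96 and 2.23 RPKM, a mean of 1.96 ± 0.27, and 27.2% of all genes were lower. Gabra3 was the higher of the pair in 3 of 3 replicates, 3.40 ± 0.331-fold, with no overlap of the ranges.

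Among the 4 alpha genes reported, Gabra3 took 64.0% ± 0.576 of the RPKM and Gabra2 18.9% ± 1.73. Gabra4 took 14.5% ± 1.13, with 1.34, 1.74 and 1.42 RPKM, and Gabra5 2.58% ± 0.0502, with 0.24, 0.29 and 0.27 RPKM. The ranges of Gabra2 and Gabra4 overlapped, although Gabra2 was higher in each replicate. Shares of Gabra3 differed by little between pools (64.3%, 64.4% and 63.4% in replicates 1, 2 and 3), and those of Gabra2 were 18.5%, 17.5% and 20.8%. As shares of reads, Gabra3 held 57.0% ± 0.969 and Gabra2 26.9% ± 2.24 of the same 4 genes, in the same order.

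Beta subunits pair with alpha at the GABA site. Gabrb2 had 2.68, 2.64 and 3.46 RPKM in replicates 1, 2 and 3, a mean of 2.93 ± 0.462 (SD, n = 3). Gabrb1 had 1.27, 1.24 and 1.01 RPKM, a mean of 1.17 ± 0.142, the lowest of the members. Replicate 3 was the highest for Gabrb2 and the lowest for Gabrb1, so their ratio was 2.11, 2.13 and 3.43 in replicates 1, 2 and 3. Over the 3 pools it was 2.55 ± 0.754-fold. The sum of the lens markers was highest in replicate 3. Those of the pigment epithelium, amacrine, bipolar and ganglion cell markers were lowest there, as was the sum over all genes. The sums of the rod and horizontal cell markers were lowest in replicate 1, and that of the Muller glia markers in replicate 2. Not every bipolar marker was lowest in replicate 3 singly. The part of these cells and tissues in the difference was not tested.

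Of the summed RPKM of these 2 beta genes, Gabrb2 held 71.1% ± 5.46 and Gabrb1 28.9% ± 5.46. Their order depended on the length. The annotation used here gives Gabrb1 1 RefSeq-linked transcript of 13737 bases and Gabrb2 one of 3989 bases. As shares of reads Gabrb1 held 58.0% ± 6.80 and Gabrb2 42.0% ± 6.80, and their log2 ratio turned from 1.24 ± 0.38 to -0.47 ± 0.40. In replicate 3 they were nearly equal, with 13.9 RPKM times kb for Gabrb1 and 13.8 for Gabrb2. These read-proportional values hold only if the authors divided by these lengths, which is not known. Gabrb1 also overlaps the start of Gabra4 by 388 bases in RefSeq GRCm38.p6, and whether the counting used strand is not stated in the labels.

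**Figure D2:**
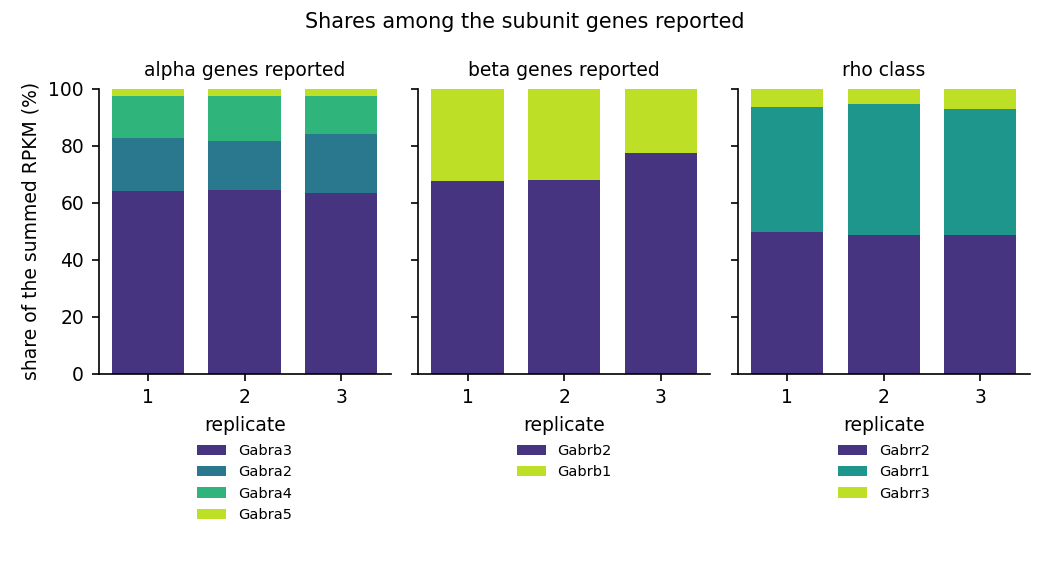
Share of each gene in the summed RPKM of the alpha, beta or rho genes reported (percent, stacked to 100), 1 bar per replicate; the alpha and beta panels do not hold the whole class. The rho class is divided between Gabrr2 (49.1%) and Gabrr1 (44.7%), and Gabrb2 gains on Gabrb1 in replicate 3.

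**Figure D3:**
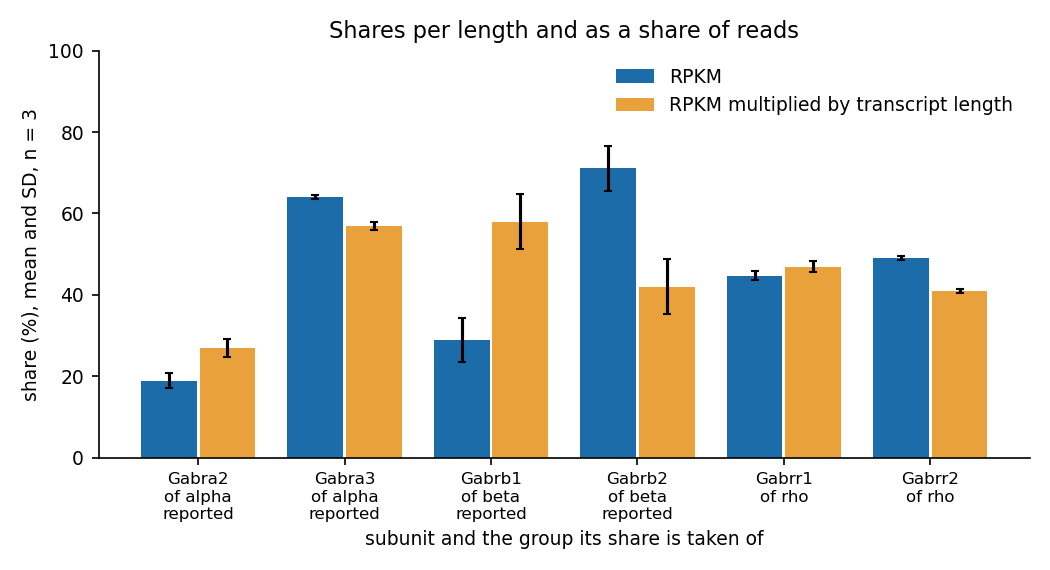
Shares of 6 members among the genes reported of their class (percent, mean and SD of 3 replicates) from RPKM and after multiplication by transcript length. Gabrb1 goes from 28.9% to 58.0% and Gabrb2 from 71.1% to 42.0%, and Gabrr1 comes to lie above Gabrr2.

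Ordered by mean RPKM, the members ran Gabrr2, Gabrr1, Gabrd, Gabra3, Gabrb2, Gabra2 and Gabrb1. In 5 of the 6 neighbouring pairs the ranges over replicates did not overlap, and Gabrr2 and Gabrr1 were the exception. The closest of the separate pairs was Gabrb2 over Gabra2, at 1.49 ± 0.129-fold. All 11 pairs within classes among the 12 genes had the same order in 3 of 3 replicates, but with 3 replicates an exact two-sided sign-flip test cannot give a p below 0.25, and this was the raw and adjusted value for each pair. In read-proportional values 3 of the 6 neighbours kept their order by means. One of these, Gabrb2 over Gabra2, was no longer separate. It had means of 11.7 and 11.5 RPKM times kb and overlapping ranges, and Gabra2 was the higher in replicate 2 (11.5 against 10.5).

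Several subunit genes lie next to each other on the chromosome (RefSeq GRCm38.p6, coding genes). Gabrr2 and Gabrr1 are direct neighbours, and they were the 2 highest of the subunit genes reported, at nearly equal levels. Gabra2 (1.96 RPKM) lies beside the lower Gabrg1 (0.537 ± 0.085 RPKM). Gabrb1 (1.17 RPKM) lies beside Gabra4 (1.5 ± 0.212), which was the higher of the pair in each replicate as RPKM, while in read-proportional values Gabrb1 was the higher (16.1 against 6.16 RPKM times kb). Gabrb2 lies beside Gabra6 and Gabra3 beside Gabrq, which were looked up and had no row, and Gabrd has no subunit gene at its side.

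Spread between pools was then compared with that of other genes, after a trimmed mean scaling of the replicates and on the log2(RPKM + 0.1) scale. Gabrr1 and Gabrr2 were among the least variable of the genes tested. Their SD was 0.021 for Gabrr1 and 0.024 for Gabrr2, and only 1.41% and 1.90% of genes had a lower one, while the median SD of the 500 genes nearest in level was 0.14 for either. In scaled RPKM Gabrr1 had 38.9, 39.8 and 38.8 in replicates 1, 2 and 3 and Gabrr2 had 43.7, 42.3 and 42.9. As deposited, without scaling, their SDs were 9.54% and 7.18% of the mean.

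Gabrb2 (SD 0.31) and Gabra2 (0.25) were the most variable members, with 88.0% and 81.1% of all genes tested lower. The median SD of the genes nearest in level was 0.17 for either. In scaled RPKM both were highest in replicate 3, Gabrb2 with 2.73, 2.42 and 3.71 and Gabra2 with 1.72, 1.80 and 2.39. The SDs of Gabrd (0.16) and Gabra3 (0.14) lay near the medians of genes of their level (0.14 and 0.14). That of Gabrb1 (0.12) lay below the median of its level (0.18). Scaling moved the order of replicates for Gabra3, which was highest in replicate 2 as deposited and in replicate 3 after scaling. It also moved that of Gabrr2, from highest in replicate 2 and lowest in replicate 3 to highest in replicate 1 and lowest in replicate 2.

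All 7 members passed the filter of a mean of 1 RPKM. None was called as varying more than genes of its level (limma, F test against a robust trended prior, Benjamini-Hochberg adjusted p between 0.993 and 0.999), against 5.40% of the 12562 genes tested. Of the genes called, 91.9% had a kind of symbol, described below, that no member has. With such symbols left out, 99 of 10474 genes were called. At an unadjusted p under 0.05 the count of members was also 0, and so it was with the non-robust prior. The smallest unadjusted p was that of Gabrb2 (0.144, limma). With 2 residual degrees of freedom per gene, a value that misses the threshold does not show that a member was equal in all pools.

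**Figure D4:**
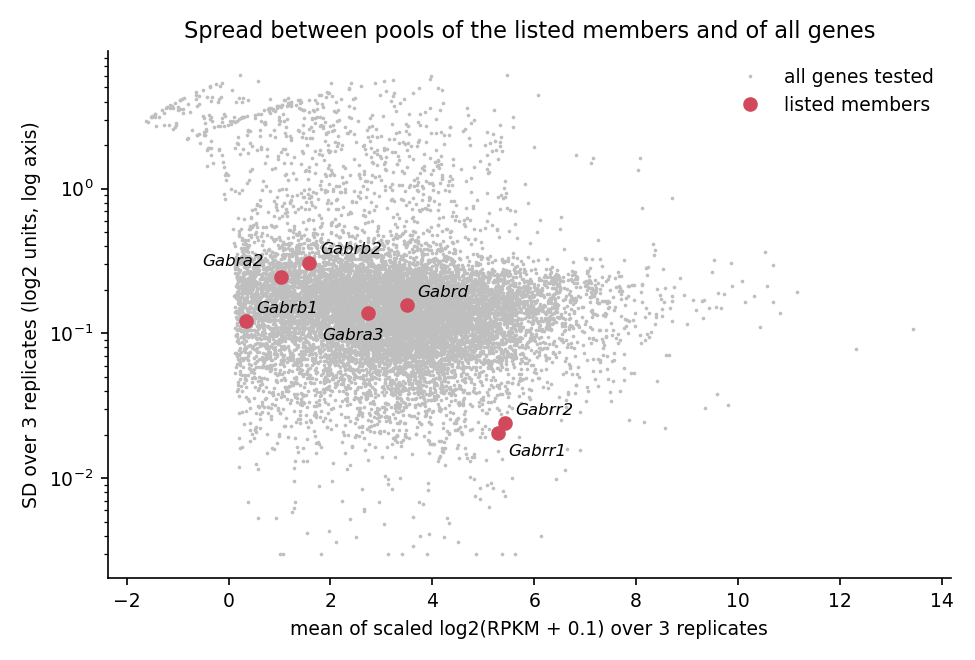
SD over the 3 replicates (log2 units, log axis) against mean scaled log2(RPKM + 0.1) for 12562 genes (grey) and the 7 members (red); SDs under 0.003 are drawn at 0.003. Gabrr1 and Gabrr2 lie low in the cloud, and Gabrb2 and Gabra2 in its upper part.

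Genes that make, carry and anchor around these receptors were measured alongside. Of the 10 genes reported for GABA synthesis, packing, uptake and breakdown, 9 had a mean of 1 RPKM or more (90%, against 81.2% of all genes), and the median of the 10 was 13.1 ± 2.23 RPKM against 6.09 ± 0.396 for all genes. The highest were Slc6a11, a GABA transporter (66.7 ± 1.47 RPKM), Gad1, the larger GABA-synthesising enzyme (66.0 ± 9.26), and Slc32a1, the vesicular transporter (54.9 ± 7.21). The symbol of Slc6a11 belongs to a kind whose rows are less certain in these tables, namely symbols that begin with the whole of another symbol and then a digit, or the shorter symbol itself (digit-extended symbols). Of the 678 genes called in the test of variation above, 623 (91.9%) had such a symbol, against 16.6% of all genes tested. None of the 7 members has one.

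Scaffold and trafficking genes of GABA receptors had a median of 29.96 ± 1.75 RPKM over 19 genes with a row, and 14 of them reached a mean of 10 RPKM (73.7%, against 37.8% of all genes). The highest were Gabarapl1 (156 ± 24.0 RPKM), a relative of the receptor-associated protein Gabarap, then Nsf (156 ± 12.7), the fusion factor of membrane traffic, and Gabarap itself (50.7 ± 9.68). Many of these serve all membrane traffic and are no measure of receptors. Gphn, the gephyrin scaffold of inhibitory synapses, had 12.8 ± 0.732 RPKM, and Gabrr1 exceeded it 3.07 ± 0.189-fold.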

How the data were processed

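RNA sequencing values of 3 retina pools were read from the deposited tables. Per the submitters' processing notes the tools were GSNAP and HTSeq and the build mm9; no version, annotation or filter is stated. The unit of the deposited values, RPKM, is an inference: multiplied by transcript length in kb they summed to between 729494 and 829133. Of 15468 rows, 15465 genes remained after repeated symbols with equal values were kept once. Depth is unknown.

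Variation between pools was tested in R 4.3.3 with statmod 1.5.0 and limma 3.58.1 on log2(RPKM + 0.1), after a trimmed mean scaling (trims of 30% on the ratios and 5% on the means, either end), where the mean was at least 1 RPKM, at an adjusted p of 0.05. The method was run on simulated data drawn from its own fitted prior, so that run cannot show how well the prior fits these data. Transcript lengths were medians over RefSeq-linked GENCODE M21 transcripts, found for 98.6% of genes. All members were named, and other subunits; of each list the 3 highest genes were named, and Gphn, Gabbr1, Gabbr2, Slc12a2 and Gad2 were added after their values were seen. Some subunit and list genes are not reported here and were left out of shares, counts and medians, so that shares of the alpha, beta and gamma classes, planned over all genes with a row, were not computed. No gene was sought for a pattern like a member's, since 3 replicates of 1 group hold no conditions. The members and lists were chosen with earlier results of these data known.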

Additional observations from a re-analysis of the deposited data

How the results depend on the processing

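No paired analysis was possible because there was 1 group. None of the 7 members was called under any of the 8 alternatives to the variation test. The number of genes called was 678, and it was 0 with the non-robust prior (705 at an unadjusted p under 0.05), 99 without symbols that extend another by a digit, and between 302 (without replicate 2) and 481 with a replicate left out, 428 without replicate 3. For the prior, the cause was not tested; the others leave out genes or samples. Multiplying by transcript length turned the log2 ratio of Gabrb2 to Gabrb1 to -0.47 ± 0.40 and of Gabrr2 to Gabrr1 to -0.20 ± 0.04. By means it left 3 of 6 neighbours of the order. It gave shares among the genes reported of 26.9% for Gabra2, 57.0% for Gabra3, 58.0% for Gabrb1, 42.0% for Gabrb2, 46.9% for Gabrr1 and 41.0% for Gabrr2. Over the members alone, with fewer genes in the sum, the shares were 22.8% for Gabra2, 77.2% for Gabra3, 47.7% for Gabrr1 and 52.3% for Gabrr2. Without digit-extended symbols, the median of the GABA-B genes was 9.05 RPKM. Leaving out 1 of 3 replicates says nothing on the stability of the RPKM shares, list medians and pair ratios, since it cannot move a mean by its SD or turn an order found in every replicate. A pseudocount of 1 changed no direction. Without read depth, the counting error of low members such as Gabrb1 is unknown.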

Other observations

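GABA also acts in the retina through GABA-B receptors, which couple to G proteins and need both subunits. Gabbr1 had 37.9, 35.8 and 34.6 RPKM in replicates 1, 2 and 3 and Gabbr2 17.0, 14.3 and 14.2, a ratio of 2.39 ± 0.147 (SD, n = 3). Gabrr2 stood at 1.19 ± 0.0843 times Gabbr1. These ratios, like those given for Gphn, Slc12a2 and Gad2, are of RPKM. They were not repeated after multiplication by transcript length. The highest of the 10 genes of GABA-B receptors and their partners were Kcnj9, a subunit of G protein-gated potassium channels (41.3 ± 3.39 RPKM), Gabbr1 and Kctd16, an auxiliary subunit (31.0 ± 4.13), which has a digit-extended symbol. The median of the list was 7.27 ± 1.05 RPKM, against 6.09 ± 0.396 for all genes.

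The effect of a GABA-gated chloride channel depends on the chloride gradient. Of the 15 genes of chloride balance looked up, 12 had a row, and all 12 (100%, against 81.2% of all genes) had a mean of 1 RPKM or more. Their median was 12.6 ± 0.583 RPKM, against 6.09 ± 0.396 for all genes. Car2, a carbonic anhydrase, had 197 ± 28.9 RPKM, Slc12a5, the neuronal chloride extruder, 157 ± 12.1, and Slc4a3, an anion exchanger, 31.5 ± 4.17. Slc12a2, the chloride importer, had 4.31, 4.29 and 4.34 RPKM, and Slc12a5 exceeded it 36.5 ± 2.74-fold. Gad1 exceeded Gad2, the second GABA-synthesising enzyme, 11.6 ± 1.74-fold.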
